A study of Mus musculus with 18 samples.

Results

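The insulin-like growth factor (IGF) axis was followed through 10 genes: the ligand *Igf1*, its receptor *Igf1r*, the binding proteins *Igfbp2*, *Igfbp3*, *Igfbp4*, *Igfbp5*, *Igfbp6* and *Igfbp7*, and the receptor substrates *Irs1* and *Irs2*. They are the rows whose gene ID maps to these symbols, and the names were chosen with earlier results of these data known. All 10 were found among the 24100 genes listed in each of the 2 count tables. RNA came from C3H/10T1/2 cells, an established mouse line of mesenchymal progenitor cells (MPCs), in normal culture without differentiation cues. *Atrx* WT cells had received the Cas9 and GFP vector without a guide, and sg5 and sg6 are *Atrx* knockout (KO) lines, each a single clone grown from a sorted GFP-positive cell. Each of the 3 lines has 3 polyA-selected libraries and 3 rRNA-depleted libraries, 18 in all. The n of 3 therefore counts libraries of a single line, the labels do not say whether these were separate cultures, and p-values measure the spread between these libraries, which may be technical. Both clones were compared with the same WT libraries.

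IGF1 is a secreted growth factor that activates IGF1R, a receptor tyrosine kinase. The activated receptor phosphorylates the docking proteins IRS1 and IRS2, which recruit PI3K and so pass the signal to AKT, mTORC1 and the FOXO transcription factors. IGF binding proteins hold IGFs in the extracellular space, where they can either keep the ligand from its receptor or store and deliver it, and in mesenchymal cells the axis is known for its part in the growth of bone, cartilage, muscle and fat.

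PolyA libraries of WT held 27544833 to 80772108 counts, those of sg5 161036799 to 235346363 and those of sg6 58918732 to 71896907. The rRNA-depleted libraries held 20135336 to 33187136 counts. *Atrx* itself fell in both clones and both kinds of library, by a log2 fold change of 1.20 to 1.39 in size. The 10 mesenchymal markers were detected in every group, with a sum in polyA libraries of 20510 to 23370 CPM (counts scaled by library size) in WT, and of 23270 to 23830 CPM for sg5 and 28000 to 30830 CPM for sg6. *Thy1* was low in WT and sg5, at means of 0.997 and 0.307 CPM, and stood at 133.9 CPM in sg6. Low levels of other cell types' markers moved with genotype. In polyA, the 5 epithelial markers summed to 3.11 to 6.29 CPM in WT, against 0.897 to 1.72 for sg5 and 0.355 to 0.868 for sg6. The 6 macrophage and leukocyte markers summed to 13.6 to 20.8, 6.20 to 7.24 and 7.30 to 9.57 CPM, with *Adgre1* at 0 counts. In WT this sum was mostly *Lyz2*, at 9.05, 11.6 and 15.3 CPM, while *Ptprc* was at most 0.0699 CPM in any polyA library. The 5 endothelial markers summed to 1.36 to 2.04, 9.46 to 14.2 and 8.47 to 11.1 CPM. *Tek* made up most of this sum, with means of 0.962, 11.5 and 9.33 CPM, while *Pecam1* was lower in both clones, at 0.340, 0.136 and 0.152 CPM, and 1 of the 3 tested was called in each direction in each clone. *Alb* and *Apoa1*, which define hepatocytes, were at 0 counts in the rRNA-depleted libraries. The part of these shifts in the results was not tested. In bulk RNA, fewer cells of a type and less RNA per cell cannot be told apart.

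A gene was called when its adjusted p was below 0.05 and its log2 fold change lay beyond 1 in edgeR's quasi-likelihood test, with Benjamini-Hochberg adjustment over all features tested. CPM are scaled by each library's size and TMM factor. Of the 10 genes, 9 passed the filter on low counts in both kinds of library. Because the members were chosen with earlier results of these data known, their counts beside the shares of all genes are descriptions alone. In polyA, 4 of the 9 were called in sg5, *Igf1* and *Igfbp7* higher and *Igfbp5* and *Igfbp6* lower, against 10.1% of all genes tested. In sg6, 3 of the 9 were called, *Igfbp7* and *Irs1* higher and *Igfbp5* lower, against 11.2% of genes. *Igfbp5* and *Igfbp7* were thus called in both clones, 2 of 9 where 7.66% of genes were. In rRNA-depleted libraries, 5 of 9 were called in sg5 against 7.35% of genes, *Igf1* and *Irs2* higher and *Igfbp4*, *Igfbp5* and *Igfbp6* lower. There, *Igfbp5* alone was called in sg6, against 5.75% of genes, and was the 1 member called in both clones, against 3.98%. *Igfbp5* passed the filter there through WT alone, the group where it is high, and DESeq2 called it in neither clone. *Igfbp6* passed there through WT and sg6, and not through sg5, the group where it is low. Nothing is therefore read from the counts of called members in rRNA-depleted libraries, with or without the fold limit. Without the fold limit, 6 of 9 members had an adjusted p below 0.05 in sg5 and 3 in sg6 in polyA, beside 27.0% and 30.7% of genes, and 5 and 1 in rRNA-depleted libraries, beside 10.7% and 7.58%. The genes went in both directions: the members' median log2 fold change was -0.25 in sg5 and 0.02 in sg6 in polyA, and -0.48 and 0.61 in rRNA-depleted libraries, while the median of all genes lay between -0.01 and 0.08.

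**Figure D1:**
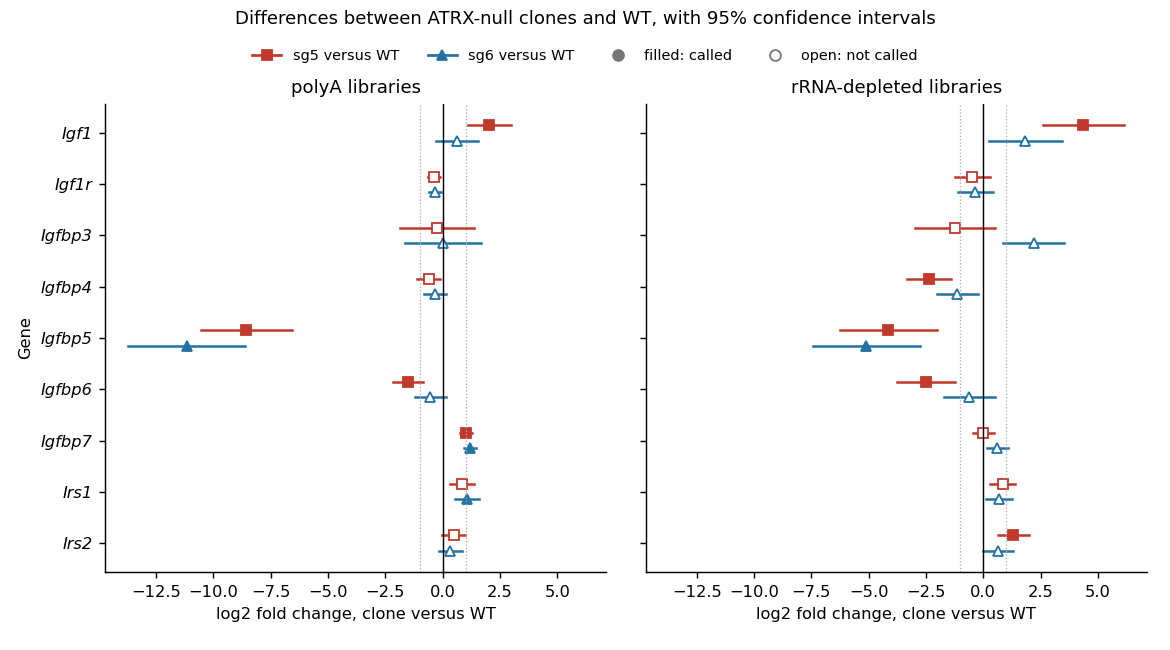
Log2 fold change of each clone against WT (x axis) for the 9 tested genes (y axis), in polyA libraries (left) and rRNA-depleted libraries (right). Bars are 95% confidence intervals from edgeR, squares are sg5, triangles are sg6, filled symbols were called and dotted lines mark a log2 fold change of 1 in either direction. *Igfbp5* lies far to the left in both clones in polyA, at -8.56 and -11.17, and *Igf1* reaches 4.37 in sg5 in rRNA-depleted libraries. There, *Igfbp5* is drawn at -4.15 and -5.11 but passed the filter through WT alone.

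*Igf1*, the ligand, was higher in sg5 than in WT in both kinds of library. In polyA, *Igf1* stood at 88.9, 94.2 and 134 CPM in the 3 WT libraries, at 724, 240 and 341 CPM in sg5, and at 199, 98.3 and 191 CPM in sg6. Every sg5 library lay above every WT and every sg6 library, while sg6 and WT overlapped. The difference was 2.04 ± 0.42 (log2, SE, n = 3) for sg5 versus WT, with an adjusted p = 0.00681 in edgeR, and 0.62 ± 0.40 for sg6 versus WT, with an adjusted p = 0.277 in edgeR.

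In rRNA-depleted libraries, *Igf1* stood at 54.8, 19.2 and 43.0 CPM in WT, at 1568, 538 and 313 CPM in sg5, and at 325, 31.8 and 60.6 CPM in sg6. The sg6 group is split, with its replicate 1 library above the lowest sg5 library and its other 2 libraries within or near the WT range. For sg5 versus WT the log2 fold change of *Igf1* was 4.37 ± 0.82 with an adjusted p = 0.00738 in edgeR, which rose to 0.0535 without WT replicate 3. For sg6 it was 1.83 ± 0.74 with an adjusted p = 0.296 in edgeR.

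Replicate 1 held the highest *Igf1* value of each clone in each kind of library. On replicates 2 and 3 alone, a setting added after that was seen, the log2 fold change of *Igf1* in sg5 was 1.35 in polyA with an adjusted p = 0.0284 in edgeR, against 2.04 with all libraries. Without sg5 replicate 1 alone, it was 1.46 in polyA and 3.48 in rRNA-depleted libraries, and both were called. Between the clones, *Igf1* differed by 1.42 ± 0.41 in polyA with an adjusted p = 0.0965 in edgeR, and by 2.53 ± 0.75 in rRNA-depleted libraries with an adjusted p = 0.299. In this comparison the replicate numbers were taken to pair the libraries, a rule read from the data and not from the labels. Blocking on the number gave an adjusted p = 0.0307 in polyA and 0.00531 in rRNA-depleted libraries in edgeR. Without sg6 replicate 1, the clones differed in rRNA-depleted libraries by 4.15 with an adjusted p = 0.00444 in edgeR.

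*Igf1* lies on the plus strand of chromosome 10 (GRCm38, 87858265 to 87937042). The antisense gene *Igf1os* overlaps its 5′ end but shares none of its exon bases (0 in GENCODE). The 250 bases before its RefSeq start (GRCm38.p6, chr10:87860861-87861110, plus strand) are shown because *Igf1* had the largest rise of the 10 genes in sg5. Capitals mark the complement of CCAAT, which 33.8% of the 32851 RefSeq promoter windows of this length hold on either strand.
Igf1: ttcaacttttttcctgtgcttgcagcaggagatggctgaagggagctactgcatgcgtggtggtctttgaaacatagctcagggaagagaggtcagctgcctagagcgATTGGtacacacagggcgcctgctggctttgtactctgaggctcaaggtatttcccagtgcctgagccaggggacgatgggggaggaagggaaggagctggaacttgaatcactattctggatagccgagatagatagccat
The window holds 5 CpG dinucleotides, close to the median of 6 over all windows.

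*Igf1r*, the receptor, differed little from WT. In polyA it stood at 273, 287 and 265 CPM in WT, at 170, 238 and 227 CPM in sg5, and at 209, 228 and 216 CPM in sg6. All 6 KO libraries lay below all 3 WT libraries, and the differences were small: -0.38 ± 0.12 in sg5, with an adjusted p = 0.0432 in edgeR, and -0.34 ± 0.12 in sg6, with an adjusted p = 0.0598. In rRNA-depleted libraries *Igf1r* ran from 68.1 to 114 CPM in WT, and the groups overlapped, with 27.7 to 94.4 CPM for sg5 and 45.7 to 80.0 for sg6. The 95% intervals there, -1.24 to 0.28 in sg5 and -1.10 to 0.41 in sg6, leave room for a change of either sign. The gene spans 67952827 to 68233668 on the plus strand of chromosome 7 (GRCm38).

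**Figure D2:**
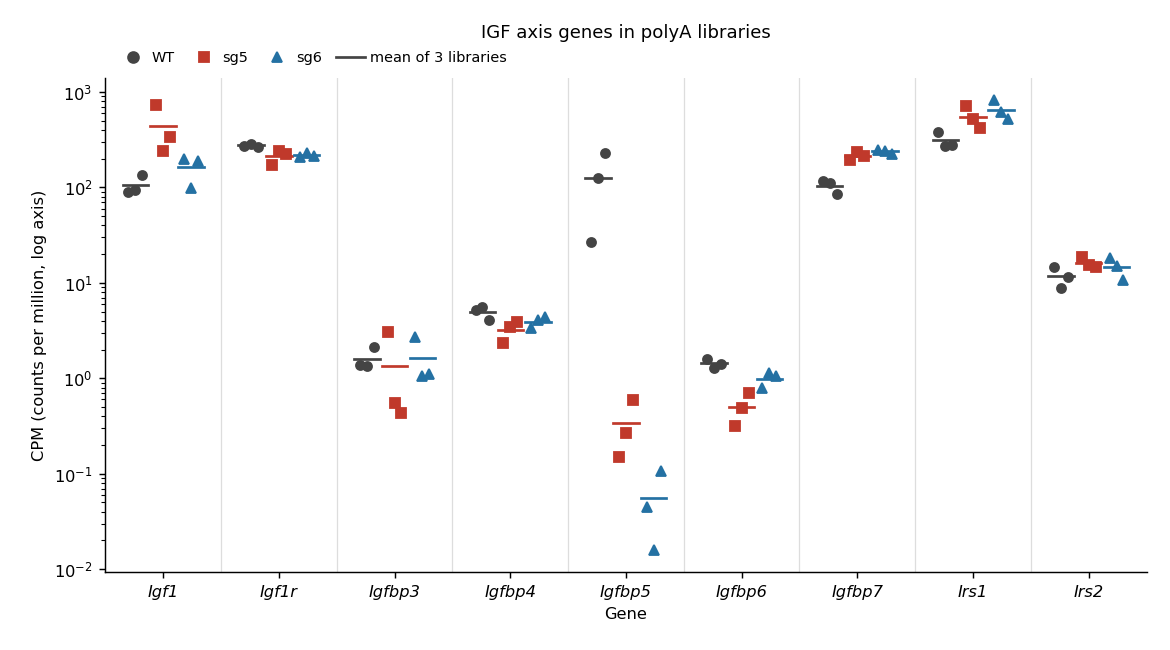
CPM (y axis, log scale) of the 9 tested genes (x axis) in each polyA library. Symbols are single libraries, replicates 1 to 3 from left to right, and lines are group means. *Igfbp5* spans 26.7 to 230 CPM in WT and stays at or below 0.592 CPM in the KO libraries, and all KO libraries of *Igfbp7* lie above WT.

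Among the 9 tested genes, *Igfbp5* had the largest change from WT in both clones in polyA, and *Igf1* that of sg5 in rRNA-depleted libraries. The change of *Igfbp5* is not ranked in rRNA-depleted libraries, where it passed the filter through WT alone. IGFBP5 is a secreted IGF binding protein that also binds extracellular matrix and bone mineral. In polyA, *Igfbp5* stood at 26.7, 124 and 230 CPM in the 3 WT libraries (764, 10855 and 10320 counts). It fell to 0.152, 0.271 and 0.592 CPM in sg5 (24, 62 and 96 counts) and to 0.0444, 0.0161 and 0.107 CPM in sg6 (3, 1 and 6 counts). WT libraries differed from each other strongly, and the lowest of them was still above every KO library. *Igfbp5* passed the filter on low counts in polyA through WT and sg5, while all sg6 libraries lay below its limit of 0.139 CPM.

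The group mean of *Igfbp5* in polyA was 126.8 ± 101 CPM for WT, 0.338 ± 0.228 CPM for sg5 and 0.0557 ± 0.0463 CPM for sg6 (SD, n = 3), so WT was 375-fold above sg5 and 2280-fold above sg6. The fitted log2 fold change was -8.56 ± 0.88 in sg5, with an adjusted p = 0.000174 in edgeR, and -11.17 ± 1.13 in sg6, with an adjusted p = 0.000135. At counts this low, the fitted size depends on a few reads. The sg5 libraries were sequenced more deeply than all others, and with all libraries thinned to the smallest, the values were -8.81 and -11.57. Single libraries moved them by over 1.5-fold: they were -7.82 and -10.43 without WT replicate 3, -9.18 without sg5 replicate 3 and -11.95 without sg6 replicate 3, all called. Between the clones, *Igfbp5* was higher in sg5 by 2.61 ± 1.52, with an adjusted p = 0.456 in edgeR. The fit with the replicate block, where the numbers were taken to pair the libraries, gave 2.57 with an adjusted p = 0.0276 in edgeR.

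In rRNA-depleted libraries, *Igfbp5* was near the detection limit outside WT. WT stood at 0.963, 2.58 and 5.49 CPM (22, 70 and 197 counts), sg5 at 12, 0 and 0 counts, and sg6 at 0, 0 and 6 counts. Neither clone overlapped WT, while the clones overlapped each other, and the gene passed the filter on low counts through WT alone. *Igfbp5* changed by -4.15 ± 0.98 (log2) in sg5, with an adjusted p = 0.031 in edgeR, and -5.11 ± 1.08 in sg6, with an adjusted p = 0.0195. These calls rest on few libraries, and without sg5 replicate 1 or sg6 replicate 3 the libraries left of that clone hold 0 counts. The adjusted p of *Igfbp5* in sg5 was 0.057 without WT replicate 2, 0.167 without WT replicate 3, 0.0901 without sg5 replicate 2 and 0.074 without sg5 replicate 3. In sg6 it was 0.128 without WT replicate 3 and 0.053 without sg6 replicate 2, and DESeq2 gave 0.432 and 0.403 for sg5 and sg6. The WT level differed strongly between the kinds of library, 126.8 CPM in polyA and 3.01 CPM in rRNA-depleted libraries, a gap in which library kind, sequencing centre and counting cannot be told apart.

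*Igfbp7* rose in both clones in polyA. IGFBP7 is a secreted matrix protein that binds IGFs only weakly. It stood at 115, 113 and 86.0 CPM in WT, at 195, 234.6 and 212 CPM in sg5, and at 247, 241 and 226 CPM in sg6. All 6 KO libraries were above all WT libraries, and the clones overlapped. On the log2 scale the change was 1.03 ± 0.12 in sg5, with an adjusted p = 0.000363 in edgeR, and 1.19 ± 0.12 in sg6, with an adjusted p = 0.000143. The sg5 value is close to the fold limit and fell to 0.91 without WT replicate 3 and to 0.96 without sg5 replicate 2.

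In rRNA-depleted libraries, *Igfbp7* was at 121, 142 and 122 CPM in WT, at 97.3, 132 and 156 CPM in sg5, and at 141, 252 and 193 CPM in sg6. Each clone overlapped WT. The sg5 difference was 0.00 with a 95% interval of -0.45 to 0.45, and the sg6 difference was 0.61 ± 0.21, with an adjusted p = 0.202 in edgeR. The difference of the sg5 effect between library kinds, rRNA-depleted minus polyA, was -1.05 ± 0.30, with an adjusted p = 0.185 in edgeR over the genes of both tables. At the 3′ end, 85 bases of *Igfbp7* exons (7.03%) overlap *Polr2b* on the opposite strand, and since the strand setting of the counting is not stated, reads from these bases cannot be assigned.

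*Igfbp5* and *Igfbp7* are the members called in both clones, in opposite directions, and their upstream windows are shown for that reason. The 250 bases before the RefSeq start lie at chr1:72874866-72875115 for *Igfbp5* and at chr5:77408046-77408295 for *Igfbp7* (GRCm38.p6), both on the minus strand. Capitals mark TATTTAA in *Igfbp5*, a TATA-like run chosen after the sequence was read, and GGGCGG or its complement (the GC box) in *Igfbp7*.
Igfbp5: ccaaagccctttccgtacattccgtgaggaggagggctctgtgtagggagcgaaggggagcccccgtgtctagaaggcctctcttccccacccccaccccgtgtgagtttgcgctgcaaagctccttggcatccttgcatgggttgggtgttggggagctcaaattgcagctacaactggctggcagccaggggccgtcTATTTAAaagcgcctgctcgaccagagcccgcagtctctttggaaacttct
Igfbp7: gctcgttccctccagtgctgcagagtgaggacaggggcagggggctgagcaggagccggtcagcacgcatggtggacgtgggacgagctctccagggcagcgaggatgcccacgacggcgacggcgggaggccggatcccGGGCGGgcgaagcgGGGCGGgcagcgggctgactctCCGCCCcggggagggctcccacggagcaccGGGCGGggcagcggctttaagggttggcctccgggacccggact
On either strand, 4.18% of all windows hold TATTTAA and 32.7% hold GGGCGG. The *Igfbp5* copy starts 51 bases before the start site, and *Igfbp7* has its GC boxes 110, 96, 74 and 44 bases before it. The windows also differ in CpG content, with 10 CpG in *Igfbp5* and 26 in *Igfbp7*, where 62.2% and 90.4% of all windows have fewer. Of the other motifs searched on both strands in the 11 windows of the 10 genes, GTAAACA, the core of FOXO sites, was in 0, CACGTG (the E-box) in those of *Igfbp2*, *Irs1* and *Irs2*, and TATAAA in those of *Igfbp4* and *Igfbp6*, with shares of 3.17%, 6.02% and 12.4% over all windows. These matches are descriptions of sequence and not of binding.

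*Igfbp6* was lower in sg5. IGFBP6 is a binding protein with a preference for IGF2. In polyA it stood at 1.61, 1.29 and 1.42 CPM in WT, at 0.316, 0.489 and 0.709 CPM in sg5, and at 0.784, 1.13 and 1.07 CPM in sg6. The 3 groups did not overlap, with sg6 between WT and sg5. The log2 fold change was -1.50 ± 0.29 in sg5, with an adjusted p = 0.00535 in edgeR, and -0.53 ± 0.29 in sg6, with an adjusted p = 0.207. Between the clones it was -0.97 ± 0.29, with an adjusted p = 0.109.

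In rRNA-depleted libraries, *Igfbp6* was at 1.45, 2.84 and 2.34 CPM in WT, at 0.423, 0.111 and 0.580 CPM in sg5, and at 0.431, 1.49 and 2.45 CPM in sg6. Here sg5 again lay below WT and sg6 overlapped both. The gene passed the filter on low counts through WT and sg6, and not through sg5. The sg5 log2 fold change was -2.50 ± 0.59, with an adjusted p = 0.0295 in edgeR. It was lost without WT replicate 2 (0.105), WT replicate 3 (0.0997) or sg5 replicate 2 (0.0988).

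*Igfbp4*, which encodes an inhibitory binding protein cleaved by the protease PAPPA, was called in sg5 in rRNA-depleted libraries. It stood there at 3.37, 7.04 and 6.38 CPM in WT, at 0.924, 0.557 and 1.70 CPM in sg5, and at 1.42, 2.61 and 3.64 CPM in sg6. Every sg5 library was below every WT library, and 2 of the 3 sg6 libraries were. Against WT, the log2 fold change was -2.37 ± 0.44 in sg5, with an adjusted p = 0.00686 in edgeR, and -1.13 ± 0.41 in sg6, with an adjusted p = 0.224. With the replicate block, where the numbers were taken to pair the libraries, the adjusted p in sg6 was 0.0459 in edgeR.

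In polyA, *Igfbp4* was at 5.17, 5.54 and 4.11 CPM in WT, at 2.32, 3.49 and 3.90 CPM in sg5, and at 3.33, 4.03 and 4.40 CPM in sg6. The sg5 libraries lay just below WT and sg6 overlapped it, with a log2 fold change of -0.61 ± 0.22 in sg5 (adjusted p = 0.0663 in edgeR) and one of -0.34 ± 0.22 in sg6 (adjusted p = 0.283). The rRNA-depleted minus polyA difference in the sg5 effect was -1.79 ± 0.57, with an adjusted p = 0.26 in edgeR. *Igfbp4* shares 5.78% of the 31-base words of its transcripts with other genes, most with *Echs1*, and the share was at most 0.243% for the other 9.

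*Igfbp3*, which encodes the main carrier of IGFs in blood, was low everywhere. In polyA it ranged from 1.34 to 2.11 CPM in WT, and both clones spread across that range, at 0.438 to 3.09 CPM for sg5 and 1.06 to 2.71 for sg6, with log2 fold changes of -0.25 ± 0.72 and 0.02 ± 0.73. Replicate 1 was the highest library of both clones, and without sg5 replicate 1 the sg5 value was -1.70 with an adjusted p = 0.0313 in edgeR. In rRNA-depleted libraries it had 8, 1 and 9 counts in WT, 3, 2 and 1 in sg5, and 36, 20 and 15 in sg6, and it passed the filter through sg6 alone. These sg6 values lay above all others, and the log2 fold change to WT was 2.20 ± 0.61, with an adjusted p = 0.0851 in edgeR, or 0.0455 with the replicate block. The log2 fold change of sg5 against sg6 was -3.43 ± 0.72, with an adjusted p = 0.0614 in edgeR, or 0.0301 with the block and 0.0222 without WT replicate 2. In polyA the clones differed by -0.27 ± 0.71.

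*Igfbp2* was not expressed at a level that could be tested. It had 1 count in a single sg5 library and 0 in the other 8 polyA libraries, and 1 count in each of 3 rRNA-depleted libraries. With 0 counts, the limit of 3 counts allows at most 0.109 CPM in the smallest polyA library, for counting error alone. *Igfbp2* and *Igfbp5* are neighbours on chromosome 1, at 72824503 to 72852474 on the plus strand and at 72857932 to 72874884 on the minus strand, with their 3′ ends 5457 bases apart (GRCm38). In the same WT libraries, then, *Igfbp5* reached 230 CPM beside a neighbour at 0. The other pair of the family, *Igfbp1* and *Igfbp3*, lies 3539 bases apart on chromosome 11. *Igfbp1* has no counts in any library of either kind, beside an *Igfbp3* of at most 3.09 CPM.

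**Figure D3:**
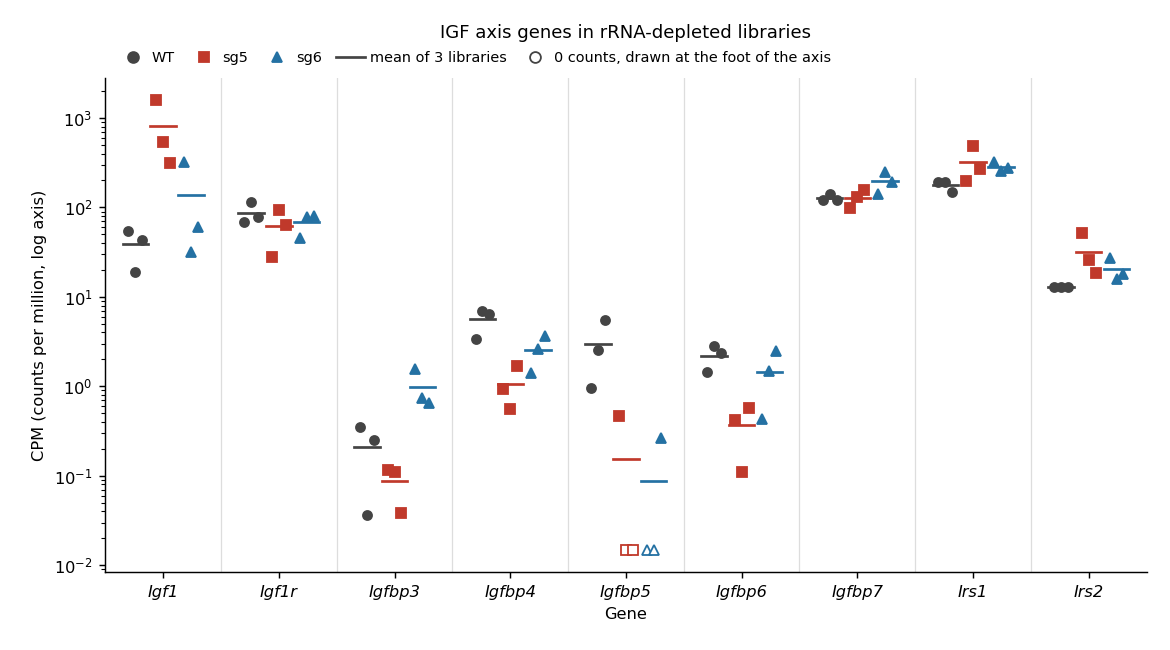
CPM (y axis, log scale) of the 9 tested genes (x axis) in each rRNA-depleted library. Symbols are single libraries, replicates 1 to 3 from left to right, lines are group means and open symbols at the foot are libraries with 0 counts. *Igf1* rises to 1568 CPM in sg5, and *Igfbp5* has 0 counts in 2 libraries of each clone.

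*Irs1*, the main docking protein of the receptor, was higher in both clones. In polyA it stood at 383, 273 and 277 CPM in WT, at 718, 520 and 420 CPM in sg5, and at 814, 612 and 518 CPM in sg6. All KO libraries lay above all WT libraries. The log2 fold change was 0.83 ± 0.23 in sg5, under the fold limit, with an adjusted p = 0.0277 in edgeR. In sg6 it was 1.06 ± 0.23, with an adjusted p = 0.00837 in edgeR. The sg5 value was 1.01 without WT replicate 1 (adjusted p = 0.0179 in edgeR). It was 0.74 without WT replicate 2 (adjusted p = 0.103) and 0.75 without WT replicate 3 (0.0803). Without sg5 replicate 1 it was 0.59 (0.0936), and without sg5 replicate 2 it was 0.87 (0.0566). The sg6 value is close to the limit, and fell to 0.97 without WT replicate 2, to 0.98 without WT replicate 3 and to 0.85 without sg6 replicate 1.

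In rRNA-depleted libraries, *Irs1* was at 190, 192 and 150 CPM in WT, at 198, 488 and 267 CPM in sg5, and at 323, 255 and 276 CPM in sg6. Neither clone overlapped WT, the clones overlapped each other, and the differences were 0.84 ± 0.26 in sg5 (adjusted p = 0.0971 in edgeR) and 0.68 ± 0.26 in sg6 (adjusted p = 0.25). Without sg5 replicate 1, the sg5 value was 1.12 with an adjusted p = 0.00797 in edgeR. Without sg5 replicate 2, the library at 488 CPM, it was 0.43 with an adjusted p = 0.379 in edgeR. *Irs1* spans 82233101 to 82291416 on the minus strand of chromosome 1, and 2822 bases of its exons (30.9%) lie under *Gm9747* on the opposite strand, so reads there cannot be told apart without strand.

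*Irs2*, the other docking protein, was called in sg5 in rRNA-depleted libraries. It stood at 12.96, 12.94 and 12.89 CPM in WT, at 51.8, 25.8 and 18.5 CPM in sg5, and at 26.9, 16.0 and 18.01 CPM in sg6. The WT libraries were nearly equal, and all 6 KO libraries lay above them. The log2 fold change was 1.31 ± 0.31 in sg5, with an adjusted p = 0.0316 in edgeR, and 0.65 ± 0.31 in sg6, with an adjusted p = 0.414. The sg5 call was lost without any of the WT libraries (adjusted p 0.0897, 0.106 and 0.129 without replicates 1, 2 and 3), and without sg5 replicate 1 the value fell to 0.81 with an adjusted p = 0.0721. In polyA, *Irs2* ranged from 8.89 to 14.7 CPM in WT, with sg5 just above it at 14.8 to 18.6 CPM and sg6 overlapping it at 10.8 to 18.3 CPM. Log2 fold changes there were 0.49 ± 0.22 for sg5 (adjusted p = 0.141 in edgeR) and 0.34 ± 0.23 for sg6 (adjusted p = 0.293).

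Without the replicate block, 0 of the 9 genes were called between sg5 and sg6, where 2.61% of genes were called in polyA and 1.48% in rRNA-depleted libraries. With the block, where the numbers were taken to pair the libraries, *Igf1* and *Igfbp5* were called in polyA and *Igf1* and *Igfbp3* in rRNA-depleted libraries. *Igfbp3* passed the filter there through sg6 alone, the group where it is high. Nothing is therefore read from its calls between the clones there, with the block or in DESeq2. At an unadjusted p below 0.05 in edgeR without the block, 2 members differed in polyA and 5, *Igfbp3* among them, in rRNA-depleted libraries. The share of all genes at that limit is not given here, so these counts are descriptions alone. DESeq2 called *Igf1* in polyA and *Igfbp3* in rRNA-depleted libraries. For the difference of a clone's effect between library kinds, 0 members were called in edgeR without the block. With it, *Igfbp7* was called for sg5 (adjusted p = 0.0257 in edgeR). The numbers were not taken to pair sg5 with WT in either kind, so nothing is read from that call. At an adjusted p below 0.05, 0.438% of genes differed between the kinds for sg5 and 0.158% for sg6. At an unadjusted p below 0.05, 3 members did for sg5 and 0 for sg6, again as descriptions without the share of all genes. DESeq2 called *Igfbp7* for sg5, with an adjusted p = 0.0412.

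Levels of different genes were compared in WT as CPM per kilobase of exon. In polyA, *Igfbp7* was highest at 86.6 ± 13.4, followed by *Irs1* at 34.0 ± 6.84, *Igfbp5* at 21.1 ± 16.9, *Igf1r* at 16.4 ± 0.679 and *Igf1* at 10.7 ± 2.47 CPM per kilobase (SD, n = 3). *Irs2*, *Igfbp6*, *Igfbp4* and *Igfbp3* followed at 1.85, 1.30, 1.12 and 0.513 CPM per kilobase. The ranges of neighbours in this order overlapped between *Irs1* and *Igfbp5*, *Igfbp5* and *Igf1r*, *Irs2* and *Igfbp6*, and *Igfbp6* and *Igfbp4*. In rRNA-depleted libraries, *Igfbp7* at 106 ± 9.90 and *Irs1* at 19.4 ± 2.59 CPM per kilobase again led, and *Igfbp5*, at 0.501 ± 0.382, was 8th of the 10. Most of the neighbours further down overlapped.

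The genes whose log2 CPM followed *Igfbp5* most closely over the 9 polyA libraries were *Marchf6*, *Kyat3* and *Onecut2*, with Pearson r of 0.995, 0.992 and 0.99 among 11361 candidates. Over the 9 rRNA-depleted libraries, r with *Igfbp5* was 0.313, 0.882 and 0.833. Among those closest to *Igfbp7* were *Ercc3* and *Scara5*, with r of 0.995 and 0.993 in polyA and 0.393 and 0.115 in rRNA-depleted libraries. All these libraries come from 3 lines, and the correlations are given as descriptions.

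Of 77 other genes of the insulin and IGF pathway, in 6 lists, 70 were tested in polyA and 65 in rRNA-depleted libraries. In polyA, 1 was called higher and 4 lower in sg5 (7.14% of those tested) and 1 higher and 2 lower in sg6 (4.29%). In rRNA-depleted libraries it was 5 higher and 2 lower in sg5 (10.8%) and 1 higher and 1 lower in sg6 (3.08%). Of all genes tested, 10.1% in sg5 and 11.2% in sg6 were called in polyA, and 7.35% and 5.75% in rRNA-depleted libraries. The share called in the lists was below that of all genes in polyA and in sg6, and above it in sg5 in rRNA-depleted libraries. The median log2 fold change of the 6 lists together lay between -0.03 and 0.19. Counts of the single lists rest on few genes and are descriptions, to be set beside these shares.

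**Figure D4:**
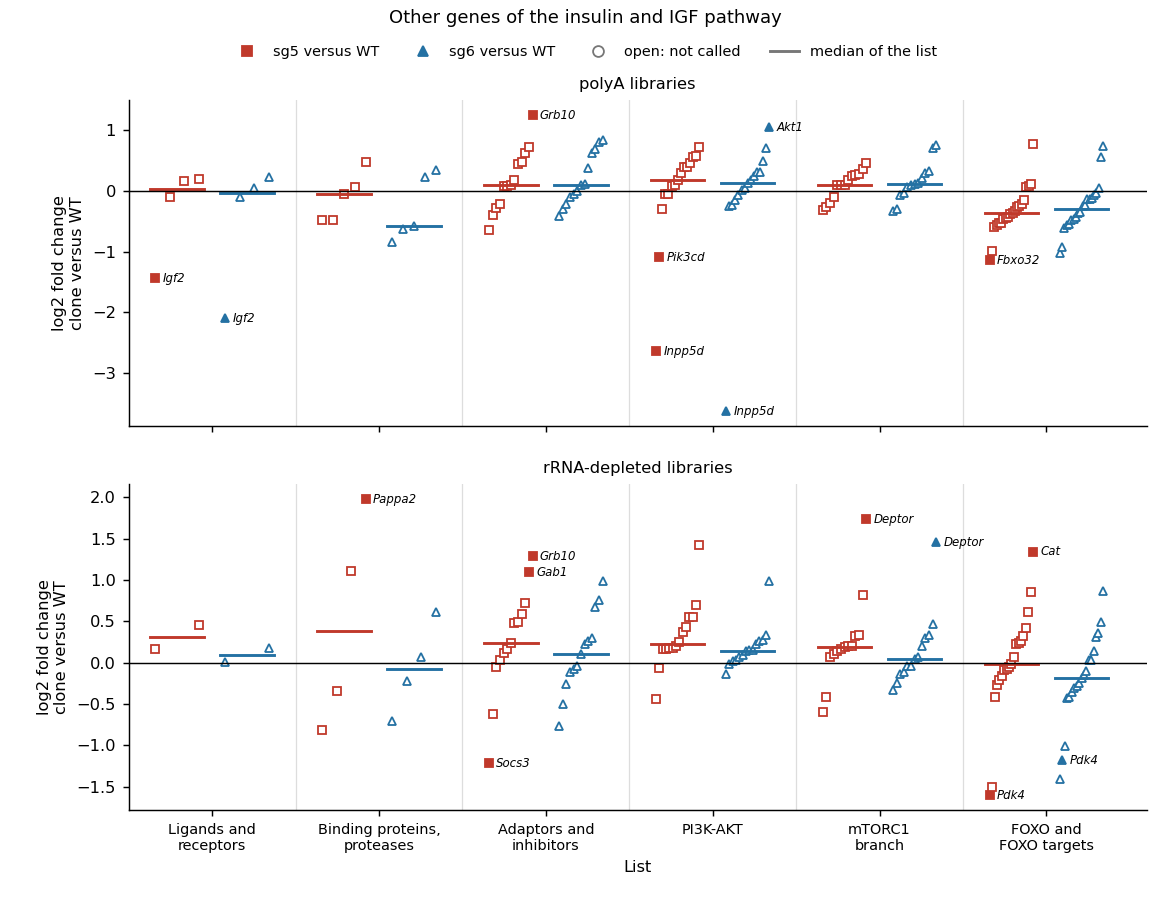
Log2 fold change against WT (y axis) of each tested gene of the 6 pathway lists (x axis), in polyA libraries (top) and rRNA-depleted libraries (bottom). Squares are sg5 and triangles sg6, filled symbols were called and are named, open symbols were not called and lines are list medians. Most genes lie within 1 of zero. *Inpp5d*, which passed the filter in polyA through WT alone, is drawn lowest there, at -2.63 in sg5 and -3.62 in sg6.

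Among the 6 other ligands and receptors, 4 were tested in polyA and *Igf2*, the second IGF ligand, was called in both clones. It stood at 5.69, 3.95 and 5.23 CPM in WT, at 2.85, 1.19 and 1.45 CPM in sg5, and at 1.61, 1.09 and 0.746 CPM in sg6. Both clones lay below WT, by -1.43 ± 0.37 (adjusted p = 0.0189 in edgeR) and -2.09 ± 0.39 (adjusted p = 0.00339). *Igf2* was thus lower in sg5 in the polyA libraries in which *Igf1* was higher. In rRNA-depleted libraries *Igf2* had at most 13 counts and was not tested. *Insr* and *Igf2r*, which encode the insulin receptor and the receptor that clears IGF2, were tested and not called.

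Of the 8 other binding proteins, partners and proteases, 5 were tested in polyA with 0 called in either clone, and 4 in rRNA-depleted libraries with 1 called higher in sg5. Of 15 receptor adaptors and inhibitors, 13 were tested in each kind. In sg5, 1 was called higher in polyA, and 2 higher and 1 lower in rRNA-depleted libraries, while 0 were called in sg6. Of all genes, 10.1% were called in sg5 in polyA and 7.35% in rRNA-depleted libraries. In sg6 the shares were 11.2% and 5.75%.

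All 15 genes of the PI3K-AKT list were tested in polyA, with 2 lower in sg5 and 1 higher and 1 lower in sg6. That is 13.3% in each clone, beside 10.1% and 11.2% of all genes. *Inpp5d*, which encodes a lipid phosphatase best known from blood cells, was lower in both clones. It stood at 0.419, 0.629 and 0.534 CPM in WT, at 0.0316, 0.1003 and 0.123 CPM in sg5, and at 0.0296, 0.0803 and 0.0178 CPM in sg6. The summed macrophage and leukocyte markers were lower too, but in WT that sum was mostly *Lyz2*, with *Ptprc* at most 0.0699 CPM. A link between that sum and *Inpp5d* was not tested. All 6 KO libraries lie below the filter's limit of 0.139 CPM, so *Inpp5d* passed through WT alone, the group where it is high. Its calls are therefore not read as results, nor is the share called in this list, which counts it in both clones. The fitted log2 fold change of *Inpp5d* was -2.63 ± 0.44 for sg5 (adjusted p = 0.00258 in edgeR). For sg6 it was -3.62 ± 0.58 (adjusted p = 0.00165 in edgeR). In rRNA-depleted libraries 0 of the 14 tested were called.

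In the mTORC1 list, 0 of 13 genes were called in polyA and *Deptor* was called in both clones in rRNA-depleted libraries. This is 7.69% of the list in each clone, beside 7.35% and 5.75% of all genes. DEPTOR is an mTOR binding protein that inhibits the kinase. *Deptor* stood at 3.42, 4.24 and 4.98 CPM in WT, at 13.1, 17.2 and 12.1 CPM in sg5, and at 16.8, 7.19 and 10.9 CPM in sg6. All KO libraries lay above WT, by 1.74 ± 0.29 (adjusted p = 0.00309 in edgeR) and 1.46 ± 0.29 (adjusted p = 0.0119). In polyA the differences were 0.45 ± 0.17 and 0.71 ± 0.17, the latter with an adjusted p = 0.0125 under the fold limit.

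Of 20 FOXO factors and FOXO target genes, 1 was called lower in sg5 and 0 in sg6 in polyA, beside 10.1% and 11.2% of all genes. The list's median log2 fold change there was -0.37 and -0.30. In rRNA-depleted libraries, 1 of 19 was higher and 1 lower in sg5, and 1 was lower in sg6. That is 10.5% of the list in sg5 and 5.26% in sg6, beside 7.35% and 5.75% of all genes. *Pdk4*, which encodes a kinase that restrains pyruvate oxidation, was lower in both clones there. It stood at 4.16, 6.71 and 5.46 CPM in WT, at 2.04, 1.67 and 1.66 CPM in sg5, and at 1.94, 2.72 and 2.54 CPM in sg6. The groups did not overlap WT, and the log2 fold change was -1.60 ± 0.27 for sg5 (adjusted p = 0.00356 in edgeR) and -1.18 ± 0.26 for sg6 (adjusted p = 0.0266). In polyA, *Pdk4* differed by -0.43 ± 0.34 and -1.02 ± 0.35, with adjusted p = 0.388 and 0.0518.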

How the data were processed

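For polyA libraries, the authors ran Rfastp, Salmon (v0.8.1 in the methods, 0.8.2 in the submitters' processing notes) and tximport v1.8.0 on mm10 genes, and deposited unnormalized expected counts. They are whole numbers, and rounding changed none. For rRNA-depleted libraries, they ran STAR and TElocal v1.1.1 and deposited the raw count of each gene and TE locus. No strand setting is stated. Symbols were found for 24045 of 24100 gene IDs in RefSeq (GRCm38.p6).

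Each table was fitted whole with edgeR 4.0.16 in R 4.3.3 (filterByExpr with minimum count 10, TMM, quasi-likelihood test, 3 groups, no replicate block), over 15480 genes in polyA and 56086 genes and TE loci in rRNA-depleted libraries. Library kinds were compared by an interaction over 14600 genes. The fits were tested on simulated data. The alternatives were DESeq2 1.42.0, median-of-ratios size factors, no filter, the replicate block, 2 groups alone, no fold limit, thinned counts, genes alone and each library left out. The members and lists were chosen with earlier results of these data known. All 10 members are named, with those pathway genes called in both clones in the same direction in a kind of library.

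Replicate numbers come from the labels. Correlations of same-numbered libraries' deviations from their group means were all above 0.1 for sg5 and sg6 in polyA (0.277 to 0.373). In rRNA-depleted libraries they were for WT and sg6 (0.114 to 0.544) and for sg5 and sg6 (0.174 to 0.638). The numbers were taken to pair the libraries in these 3 comparisons, by a rule applied to these same data. The labels do not state such a pairing. In rRNA-depleted libraries, sg5 replicate 3 correlated better with sg6 replicate 2 (0.5555) than with its own number (0.174). The block was fitted over all groups, also those not taken as paired. Floors of 3 counts cover counting error only. A gene among those most like *Igfbp7* is not reported here.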

Additional observations from a re-analysis of the deposited data

How the results depend on the processing

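Each group is 3 libraries of 1 line. Calls in rRNA-depleted libraries of *Igf1*, *Igfbp5*, *Igfbp6* and *Irs2* were lost without single libraries, and few counts limit *Igfbp3* and *Igfbp5* there. *Igfbp3* passed the filter there through sg6 alone and *Igfbp5* through WT alone, so calls of these genes there are not read as results. Over the 13 called log2 fold changes, the direction was kept in all 227 alternative values and the call in 205. These values include the setting without a fold limit, which reuses the main fit and could change neither direction nor call. They also include fits without a library of the clone not compared, so the share kept overstates how firm the calls are. DESeq2 lost *Igfbp5* in rRNA-depleted libraries, leaving 0 members lower in sg6 and 0 lower in both clones. It called 1 member higher between sg5 and sg6 in polyA and 1 lower in rRNA-depleted libraries, and 1 lower in the sg5 effect between library kinds. Without the filter, 1 member was higher in sg6 and 1 in both clones in rRNA-depleted libraries, and 1 was higher and 1 lower between the clones. That fit gave *Igf1* an adjusted p = 3.64e-100 in sg5 and 4.54e-21 in sg6 in edgeR. The main fit gave 0.00738 and 0.296 from the same libraries, so nothing is read from the calls added without the filter. Fitting genes alone gave 1 higher in sg6 and 1 lower between the clones, replicates 2 and 3 alone (chosen after seeing the data) 1 higher between the clones in rRNA-depleted libraries and 3 lower in sg5 in polyA, where 2 were with all libraries, and no fold limit 2 higher in both clones in polyA. The causes of these changes were not tested.

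Leaving out each library in turn, the count of members called higher in polyA ranged from 1 to 3 in sg5, from 1 to 2 in sg6 and from 0 to 2 in both clones, and that called lower in sg5 from 2 to 3, with *Igfbp3* added without sg5 replicate 1. In rRNA-depleted libraries, it was 0 to 2 higher and 1 to 3 lower in sg5, 0 to 1 lower in sg6, 0 to 1 lower in both clones, and 0 to 1 in either direction between the clones.

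Values near zero changed sign. Left-out libraries moved *Igfbp3* in polyA from -1.70 to 0.17 in sg5, from -0.58 to 0.27 in sg6 and from -1.72 to 0.33 between the clones, and *Igfbp7* in sg5 in rRNA-depleted libraries from -0.15 to 0.20. In sg6 in polyA, *Igfbp3* was -0.28 with the replicate block, -0.21 with thinned counts and -0.66 on replicates 2 and 3 alone. *Igfbp7* in sg5 in rRNA-depleted libraries was 0.046 with DESeq2 and with median-of-ratios size factors, 0.0051 with thinned counts, 0.012 with 2 groups alone, 0.15 on replicates 2 and 3 alone and 0.036 without the filter.

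With the replicate block, 2 members were higher between sg5 and sg6 in polyA. In rRNA-depleted libraries, 1 was higher and 2 lower in sg6, 2 were lower in both clones, and 1 was higher and 1 lower between the clones. The block also called *Igfbp7* in the sg5 effect between library kinds (1 lower, adjusted p = 0.0257 in edgeR), though the numbers were not taken to pair sg5 with WT. It changed no other call. In the 3 comparisons where the numbers were not taken to pair the libraries, same-numbered correlations ran from -0.229 to 0.43. Over all comparisons, 9 of 9 polyA and 6 of 9 rRNA-depleted libraries correlated best with their own number.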
